A study of Mus musculus with 20 samples.

Results

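Il33, Il1rl1 and Il1rap encode the cytokine IL-33, its specific receptor ST2 and the co-receptor that ST2 shares with other IL-1 family receptors, and their RNA was followed through 6 mouse sarcomas and the 14 lung metastases matched with them. The 3 genes were taken by symbol from the 51826 genes of the deposited count table, and all 3 were among the 18452 genes with enough counts to be tested. They were chosen by their measured CPM in these same libraries, each metastasis read against its own primary tumour. Their metastasis-to-primary differences are therefore given as a description, with no test. The same holds for Cpa3 and Cma1, mast cell proteases, and Cd3e, a chain of the T cell receptor complex, which were named for comparison.

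The study concerns the long non-coding RNA NEAT1, splicing and sarcoma metastasis, and each library is ribosomal RNA-depleted total RNA from what the labels call tumour tissue. A set here is 1 primary tumour with the metastases matched with it by number: sets 1 and 2 have 4 metastases each, sets 3 and 6 have 2 each, and sets 4 and 5 have 1 each. Metastases are written by set and then by their own number, so 1-2 belongs to set 1; the one of set 5 carries no number. The labels describe every mouse, with primary tumour or metastasis alike, only as of mixed background. Driver alleles, age, sex, tumour site and treatment are absent from these labels, as is whether metastases of a set came from 1 animal. Differences between libraries of a set may then include spread within an animal.

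IL-33 is kept in the nucleus of endothelial cells, fibroblasts and barrier epithelium and is released when cells are damaged. In the mouse lung the alveolar type 2 cell is a main source. Outside the cell it binds ST2, which then recruits the protein of Il1rap and signals through MyD88 and IRAK kinases to NF-kB and MAP kinases. Membrane-bound ST2 is known from mast cells, group 2 innate lymphoid cells and regulatory T cells. A soluble form, made from the same gene by fibroblasts among other cells, holds IL-33 away from the receptor. Counts per gene add both forms together.

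Il1rl1 and Il33 each have 2 transcription starts in RefSeq, 10059 bases apart for Il1rl1 and 20677 bases apart for Il33, and Il1rap has 1. The sequences that follow are the 250 bases before both starts of Il1rl1, the gene with the lowest metastasis level of the 3 relative to the primary tumours, and before 1 start each of Il33 and Il1rap. All lie on the plus strand and are from RefSeq on GRCm38.p6, the build named mm10 by the submitters. Capitals mark the binding words of GATA factors. These begin with A, as AGATAA does and as does the form AGATAG, or they begin with T, where the words are TGATAA and, with another last letter, TGATAG. They were searched on both strands and chosen after the sequences had been seen. The positions are chr1:40429320-40429569 and chr1:40439379-40439628 for Il1rl1, chr19:29924863-29925112 for Il33 and chr16:26581455-26581704 for Il1rap.
Il1rl1 upstream start: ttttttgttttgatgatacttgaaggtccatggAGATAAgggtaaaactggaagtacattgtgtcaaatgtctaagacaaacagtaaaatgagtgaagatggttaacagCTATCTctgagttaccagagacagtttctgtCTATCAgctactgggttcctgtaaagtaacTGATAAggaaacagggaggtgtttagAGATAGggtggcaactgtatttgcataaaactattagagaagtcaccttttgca
Il1rl1 downstream start: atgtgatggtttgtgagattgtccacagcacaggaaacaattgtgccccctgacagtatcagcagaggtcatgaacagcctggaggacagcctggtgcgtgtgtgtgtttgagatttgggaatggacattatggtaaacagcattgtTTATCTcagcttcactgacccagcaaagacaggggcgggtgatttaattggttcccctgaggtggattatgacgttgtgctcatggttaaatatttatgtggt
Il33 upstream start: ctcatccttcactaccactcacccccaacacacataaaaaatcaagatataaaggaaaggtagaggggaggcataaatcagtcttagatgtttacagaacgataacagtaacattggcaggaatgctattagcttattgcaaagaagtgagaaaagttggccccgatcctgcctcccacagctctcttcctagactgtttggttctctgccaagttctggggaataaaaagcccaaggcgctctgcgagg
Il1rap start: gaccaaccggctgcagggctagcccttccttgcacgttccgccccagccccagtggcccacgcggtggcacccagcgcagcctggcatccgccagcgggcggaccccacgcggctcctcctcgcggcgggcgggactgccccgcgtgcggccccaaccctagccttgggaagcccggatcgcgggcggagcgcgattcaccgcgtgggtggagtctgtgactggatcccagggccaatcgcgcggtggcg

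The upstream Il1rl1 start had 5 GATA words, at -217, -141, -110, -80 and -54 from the start, and the downstream one had 1, at -103. Counted over windows from 250 bases before to 50 after a start, 29.8% of 32851 RefSeq windows held at least 1 such word and 0.0548% held 5 or more. Neither Il33 window nor the Il1rap window held 1. TATAAA on the strand of the gene occurred once in each Il33 window and in no window of the other members, against 8.32% of all windows. TGANTCA, the AP-1 word, occurred in none of the 5 windows on either strand, against 7.81% of all. The Il1rap window had 33 CpG, a count that 8.56% of windows reach, against 1 and 3 for Il1rl1, 6 and 5 for Il33 and a median of 7. These matches describe letters only. The counts do not tell which start was used.

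The 20 libraries held 20603620 to 36824370 gene counts. Primary tumours 4 and 6 stood apart from the other primary tumours, and the labels do not say whether their material was of another kind, such as cultured cells. The summed level of 15 endothelial markers was 2.73 CPM, a gene's count scaled to the total of its library, in primary tumour 4 and 6.33 in primary tumour 6, against 355 to 775 in the other 4 and 209 to 2990 in the metastases. Skeletal muscle markers (12 genes) summed to 71.8 and 6.63 CPM in those 2 and to 10554 to 25856 in the other 4 primary tumours. Fibroblast markers summed to 3575 to 18207 CPM, but not every marker was high. In primary tumour 4, Col3a1, Col1a2 and Cd34 gave 59104, 35516 and 32460 of the 131109 counts of that list, while Col1a1 had 28 and Lum 7. In primary tumour 6, Col1a2 and Col3a1 gave 154147 and 77179 of 314708 counts, while Col1a1 had 1008 and Lum 56. The 11 alveolar type 2 markers summed to 45.0 to 176 CPM in primary tumours and 152 to 12227 in metastases. The metastases of set 6 were the most alike of any library pair, with r = 0.994 over genes as a description, and still differed by more than sampling noise. In bulk tissue, fewer cells of a type and less RNA per cell cannot be told apart.

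Il1rl1, the receptor, was high in 4 primary tumours, lower in primary tumour 5, low in primary tumour 4 and low in every metastasis. In primary tumours 1 to 6 it stood at 342, 629, 696, 12.04, 73.3 and 504 CPM. In metastases it stood at 4.42, 21.6, 11.1 and 13.4 CPM in set 1, at 30.1, 12.5, 5.39 and 2.38 in set 2, at 3.58 and 4.71 in set 3, at 12.8 in set 4, at 8.64 in set 5 and at 2.71 and 2.43 in set 6. Primary tumour 4 lay within the range of the metastases, and the other 5 primary tumours lay above all 14 metastases. The mean was 376 ± 286 CPM in primary tumours (SD, n = 6) and 9.70 ± 8.13 CPM in metastases (SD, n = 14), and 13 of 14 metastases were below their own primary tumour. All 14 metastases lay below all 6 primary tumours for 0.412% of the genes tested, and Il1rl1, Il33 and Il1rap were not among them.

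The size of the Il1rl1 difference varied between sets. The primary tumour exceeded the mean of its metastases 27.1-fold in set 1, 49.9-fold in set 2, 168-fold in set 3, 8.48-fold in set 5 and 196-fold in set 6. In set 4 the ratio was 0.939, and both values were near the metastasis level of the other sets. The difference fitted over all sets was -5.52 on the log2 scale, and the 6 set differences averaged -4.85 ± 2.94 (SD). Leaving out sets 4 and 6, a choice made after seeing the data, gave -5.48.

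**Figure D1:**
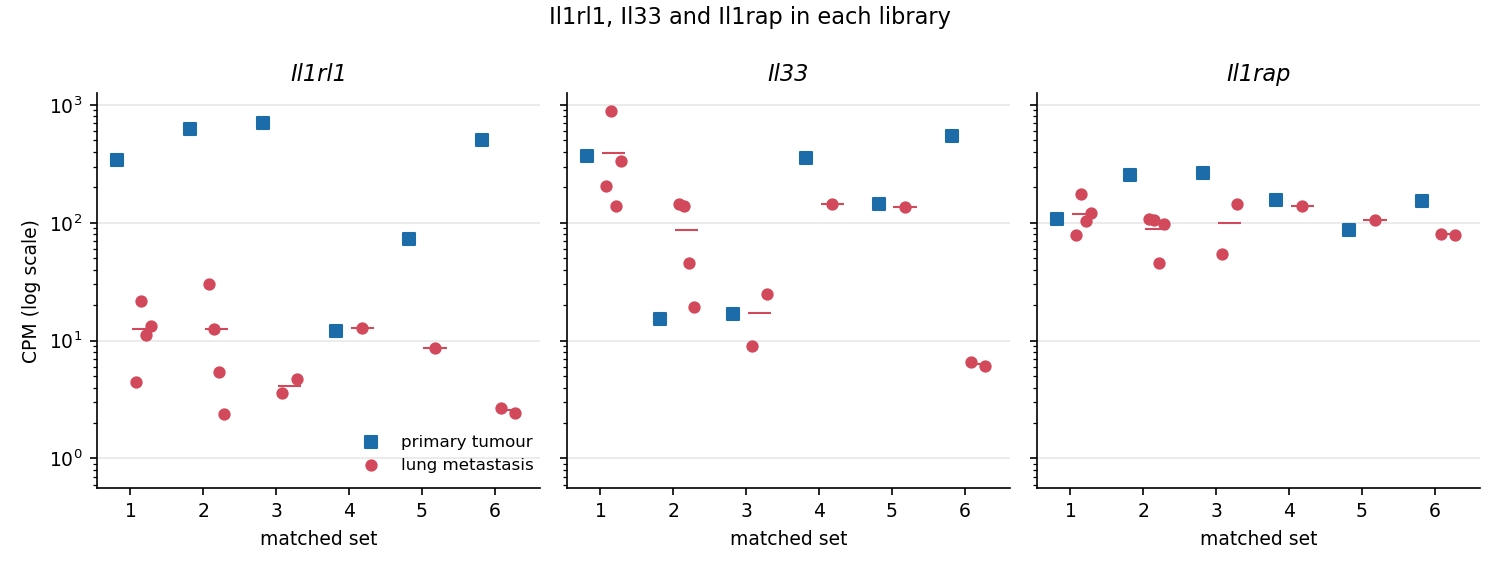
CPM (log axis) of Il33, Il1rl1 and Il1rap in each library by matched set; squares are primary tumours, circles are metastases and a horizontal line is the mean of a set's metastases. Il1rl1 is 73.3 to 696 CPM in 5 primary tumours and at most 30.1 CPM in any metastasis, whereas Il33 changes places between sets and Il1rap stays within 45.9 to 264 CPM.

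Il33, the ligand, had no common direction. In primary tumours 1 to 6 it stood at 367, 15.2, 16.9, 355, 144 and 543 CPM. In metastases it stood at 206, 881, 138 and 334 CPM in set 1, at 144, 138, 45.3 and 19.2 in set 2, at 9.04 and 25.0 in set 3, at 145 in set 4, at 136 in set 5 and at 6.56 and 6.06 in set 6. The groups overlapped over nearly their whole ranges, with means of 240 ± 215 CPM in primary tumours (SD, n = 6) and 159 ± 228 in metastases (SD, n = 14). Of the metastases, 8 were below and 6 above their own primary tumour.

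Sets 2 and 6 went furthest apart in Il33. All 4 metastases of set 2 exceeded their primary tumour, with a mean 5.71-fold higher, while both metastases of set 6 were below theirs, which exceeded their mean 86.2-fold. In sets 1, 3 and 5 the mean of the metastases was within 1.06-fold of the primary tumour, and in set 4 the primary tumour was 2.45-fold higher. The fitted difference was -0.93 on the log2 scale, 0.22 without set 6 and 0.51 without sets 4 and 6. The 6 set differences averaged -1.02 ± 2.86 (SD).

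Il1rap, the co-receptor, varied least. In primary tumours 1 to 6 it stood at 108, 253, 264, 157.5, 86.2 and 154 CPM. In metastases it stood at 79.3, 174, 103 and 120 CPM in set 1, at 107, 105, 45.9 and 96.9 in set 2, at 54.4 and 144 in set 3, at 139 in set 4, at 105 in set 5 and at 81.0 and 79.0 in set 6. The groups overlapped, with means of 170 ± 73.4 CPM (SD, n = 6) and 102 ± 34.7 (SD, n = 14), and 11 of 14 metastases were below their own primary tumour. Sets 2 and 3 had the lowest values relative to the primary tumour, which exceeded the mean of its metastases 2.85-fold and 2.65-fold. The fitted difference was -0.74 on the log2 scale, and the 6 set differences averaged -0.65 ± 0.832 (SD).

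Per exon length, with all annotated exons of a gene merged, as CPM per kilobase (RPKM), the order of the 3 genes differed between primary tumours. Il33 averaged 83.2 ± 74.5 RPKM in primary tumours and 55.3 ± 79.0 in metastases, Il1rl1 54.5 ± 41.4 and 1.41 ± 1.18, and Il1rap 15.0 ± 6.46 and 9.02 ± 3.06 (SD, n = 6 and 14). Receptor RNA exceeded ligand RNA in primary tumours 2 and 3, 17.4-fold and 17.3-fold, and in no other library: 2 of 6 primary tumours and 0 of 14 metastases. Il1rl1 exceeded its co-receptor Il1rap in 5 of 6 primary tumours, all but primary tumour 4, and in 0 of 14 metastases. In primary tumour 5 that order was the reverse in CPM, with 73.3 for Il1rl1 and 86.2 for Il1rap. The lowest of the 3 genes was Il1rap in primary tumours 1, 5 and 6, Il33 in primary tumours 2 and 3, and Il1rl1 in primary tumour 4 and in all 14 metastases.

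**Figure D2:**
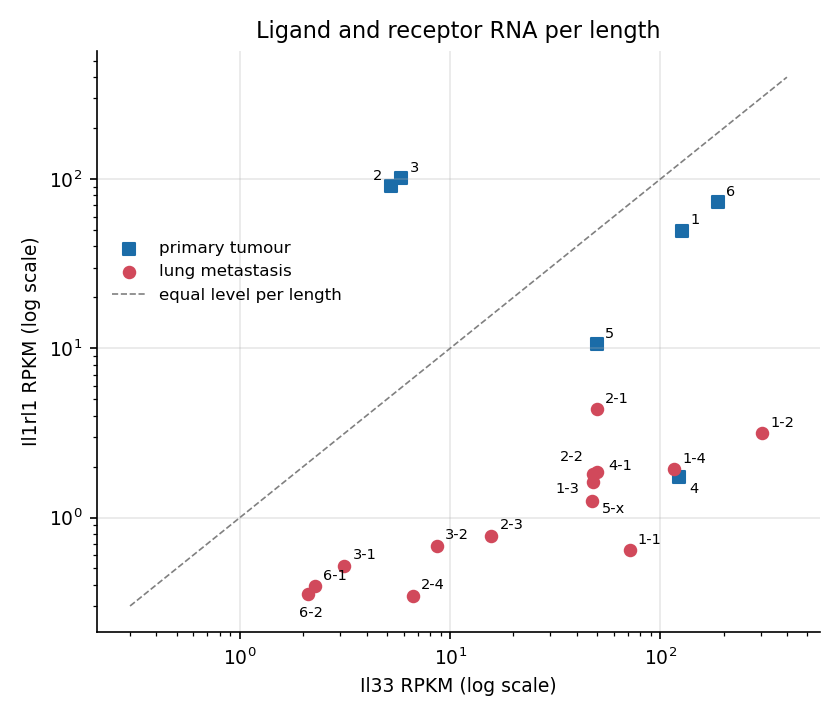
Il33 RPKM (x axis, log scale) against Il1rl1 RPKM (y axis, log scale) in each library, numbered by primary tumour or metastasis; the dashed line marks equal levels. Primary tumours 2 and 3 lie above the line and all 14 metastases lie below it, with Il1rl1 at or under 4.37 RPKM.

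Among the metastases, the sets were compared without the primary tumours. Their CPM in these libraries chose the 3 genes, so this too is a description of them, with no p. Ordered by mean, Il33 was 390 ± 337 CPM in set 1 (SD, n = 4), 145 in set 4 and 136 in set 5 (1 metastasis each), 86.5 ± 63.6 in set 2 (n = 4), 17.0 ± 11.2 in set 3 (n = 2) and 6.31 ± 0.353 in set 6 (n = 2). Sets 1 and 4, sets 5 and 2 and sets 2 and 3 overlapped as neighbours in that order. All 4 metastases of set 1 were above all those of sets 3 and 6. Over all genes, 0.321% of 19919 were called as differing between sets 1, 2, 3 and 6, with 12 metastases (edgeR's quasi-likelihood F test).

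The receptor and the co-receptor were also ordered by mean, and their orders of sets differed. Il1rl1 averaged 12.8 CPM in set 4, 12.6 ± 7.11 in set 1, 12.6 ± 12.4 in set 2, 8.64 in set 5, 4.14 ± 0.799 in set 3 and 2.57 ± 0.191 in set 6. The first 4 overlapped as neighbours, and sets 5, 3 and 6 did not. Il1rap averaged 80.0 to 139 CPM across sets, from highest to lowest in sets 4, 1, 5, 3, 2 and 6. All neighbours in that order overlapped. Sets 3 and 6 were the lowest for both Il33 and Il1rl1.

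The mast cell genes were read beside the receptor, since mast cells carry ST2. Cpa3 stood at 20.4, 86.7, 109, 0, 11.7 and 0.0337 CPM in primary tumours 1 to 6 and at 0.03 to 2.88 in metastases. Cma1, the chymase, stood at 9.76, 45.4, 63.5, 0, 8.07 and 0 CPM in the same order, and at 0.03 to 1.19 in metastases. Both were high in primary tumours 1, 2, 3 and 5 and at or near 0 in primary tumours 4 and 6. In those 4 primary tumours there were 6.29 to 16.7 counts of Il1rl1 for each count of Cpa3, against 3.00 to 58.4 in the 13 metastases with more than 3 Cpa3 counts.

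Primary tumour 6 had much receptor RNA and almost none of these markers. It held 14984 counts of Il1rl1 with 1 count of Cpa3 and 0 counts of Cma1 and of Cd3e. Of 20 mast cell markers 13 had 0 counts there, among them Mcpt4, Tpsb2, Tpsab1, Fcer1a and Ms4a2, and the list summed to 3.26 CPM. Of 16 T cell markers 11 had 0 counts, among them Cd3d, Cd3g and Trac. Foxp3, the factor that defines regulatory T cells, had 1 count. The innate lymphoid list summed to 54.5 CPM there, with 3 of its 12 genes at 0. Rora at 26.7 CPM and Areg at 24.7 CPM carried most of that sum, and no other gene of the list exceeded 1.65 CPM. Fibroblast markers summed to 10593 CPM in that tumour.

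Primary tumour 4 had similarly few such markers with little Il1rl1. A count of 0 allows up to 3 counts, which is 0.161 CPM in primary tumour 4 and 0.101 in primary tumour 6. Primary tumour 4 held 225 counts of Il1rl1 and 0 of Cpa3, Cma1 and Cd3e, and 15 of 20 mast cell and 11 of 16 T cell markers were at 0. In the other 4 primary tumours the mast cell list summed to 197, 470, 609 and 148 CPM, in the order 1, 2, 3 and 5. Primary tumour 3 had the most of both the list and Il1rl1 among these 4, followed by 2, 1 and 5. The metastases had 28.7 to 177 CPM of the list with a median of 47.6. Hdc, Kit, Gata2 and Hpgds, which other cells also make, carried most of that. The 16 other markers, a split made after the values were seen, summed to 1.67 to 15.1 CPM in metastases and to 113, 388, 526 and 79.1 CPM in primary tumours 1, 2, 3 and 5. They summed to 0.214 and 0.101 CPM in primary tumours 4 and 6. The part of mast cells in the Il1rl1 difference of any set was not tested.

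Cd3e was low everywhere, at 1.42, 0.847, 0.898, 0, 3.24 and 0 CPM in primary tumours 1 to 6 and at 0.03 to 1.84 in metastases. Primary tumour 5 had the most Cd3e and the second lowest Il1rl1. The T cell list summed to 5.55 to 72.8 CPM in primary tumours and 4.89 to 33.6 in metastases, the regulatory T cell list of 9 genes to 19.2 to 42.6 and 7.44 to 25.7, and the innate lymphoid list of 12 genes to 54.5 to 118 and 31.95 to 541. The medians in primary tumours and metastases were 37.9 and 12.6 CPM for the regulatory T cell list and 65.6 and 247 for the innate lymphoid list. Arg1 carried the second difference: without it the innate lymphoid medians were 56.3 and 31.98 CPM, a split made after the values were seen. In primary tumours 4 and 6, Ikzf2 alone gave 38.3 and 18.2 CPM of the regulatory T cell sums of 38.4 and 19.2 CPM. Single genes also carried some T cell sums. Trbc2 gave 12.5 of 14.0 CPM in primary tumour 4 and 15.2 of 18.3 in metastasis 2-4, and Lck gave 5.02 of 5.55 in primary tumour 6. The part of T cells and innate lymphoid cells in the Il1rl1 values was not tested. Some of these genes are shared between lists or made by other cells, as with Arg1 and Gata2.

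**Figure D3:**
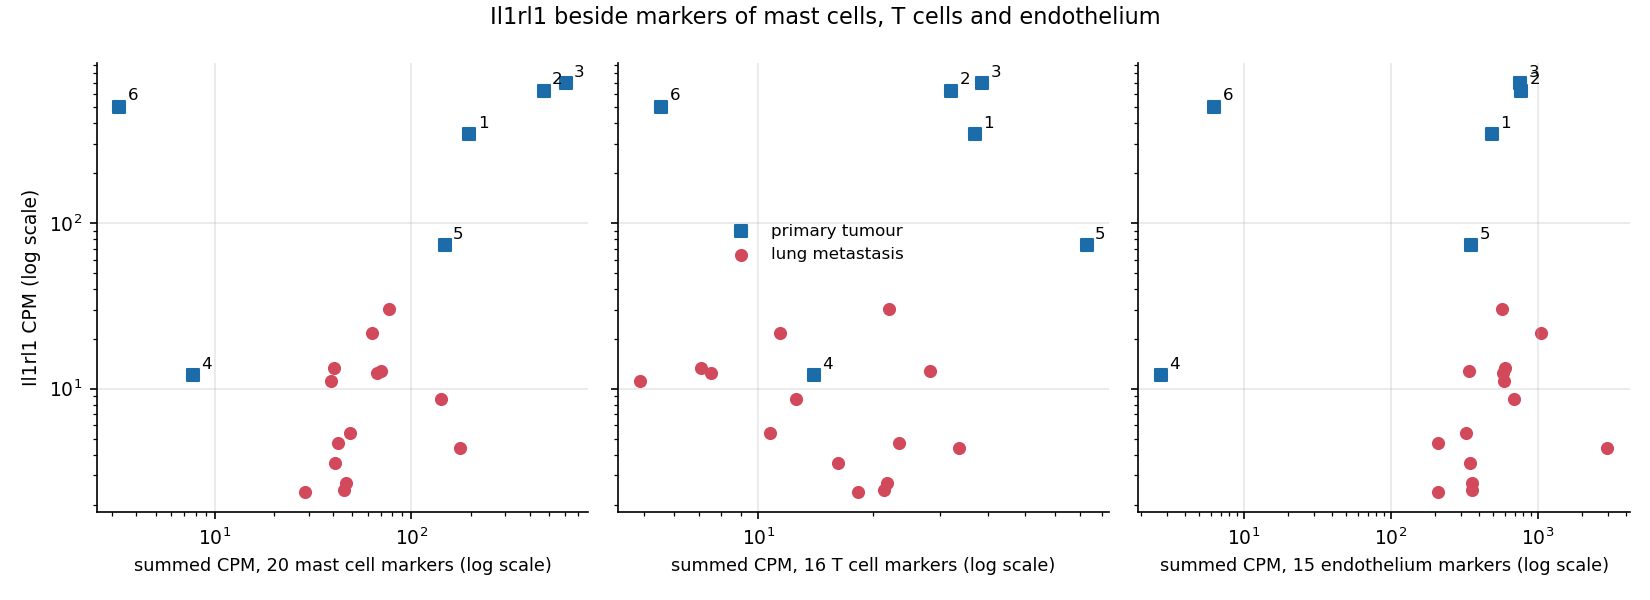
Il1rl1 CPM (y axis, log scale) against the summed CPM of mast cell, T cell and endothelial markers (x axes, log scale) in each library; squares are the numbered primary tumours and circles the metastases. Primary tumour 6 combines 504 CPM of Il1rl1 with 3.26 CPM of mast cell markers, while primary tumours 1, 2, 3 and 5 have 148 to 609 CPM of them.

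For the ligand, markers of alveolar, endothelial and fibroblast cells were read the same way. Metastasis 1-2 had the most Il33, 881 CPM, with 392 CPM of alveolar type 2 markers and 1060 of endothelial ones. The metastasis of set 5 had the most alveolar type 2 RNA, 12227 CPM, with 136 CPM of Il33. Metastasis 1-1 had 5887 CPM of alveolar type 2 and 2990 of endothelial markers and 206 CPM of Il33, and the set 6 metastases had 458 and 456 CPM of alveolar type 2 markers and the least Il33. Primary tumours 4 and 6 had 355 and 543 CPM of Il33 with 2.73 and 6.33 CPM of endothelial markers and 7017 and 10593 of fibroblast ones. Among metastases, 1-2 was below only 1-1 in endothelial markers and in alveolar type 1 markers, which summed to 861 and 1705.5 CPM in 1-2 and 1-1. The part of any cell type in the Il33 values was not tested.

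Beyond the members and the 3 comparison genes, 68 of 86 other genes in 6 lists of the pathway could be tested between metastases and primary tumours, with the matched set as a block. In metastases 8 rose and 4 fell (edgeR, adjusted p under 0.05), which is 17.6% of the lists beside 13.8% of all 18452 genes. Of the 8 that rose, 2 passed the filter on low counts only through the metastases, so they had to be higher there. The median difference over the lists was 0.21 on the log2 scale, beside -0.00032 over all genes. With the metastases of each set summed, 1 rose and 0 fell, and with DESeq2 15 rose and 9 fell. Without sets 4 and 6 there were 3 and 8, and leaving out set 1 gave 1 and 0, set 2 gave 4 and 0, set 3 gave 13 and 7 and set 6 gave 2 and 5.

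Of the other IL-1 family ligands and decoys, 1 of 6 tested (16.7%) was called, as higher in metastases. That is near the 13.8% of all genes called, 7.34% being higher. The median log2 difference was 0.56. Il1f9, which encodes IL-36 gamma, was called at 14 counts in all primary tumours together and 233 in all metastases (log2 difference 2.78 ± 0.788, edgeR adjusted p = 0.0283), and 4 of 12 alternatives lost the call. No primary tumour reached the minimum count, so it passed the filter through metastases alone. Il18, an inflammasome-processed cytokine, was 9.52 CPM in primary tumours and 13.2 in metastases (edgeR adjusted p = 0.0597). Il18bp, its soluble decoy, was 8.88 and 5.61 CPM (edgeR adjusted p = 0.0646). The alarmin Il1a (0.0844), the receptor antagonist Il1rn (0.721) and Il1b (0.948) were not called, with edgeR adjusted p in parentheses.

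Of the other receptors, 1 of 6 (16.7%) was called, also as higher, again near the 13.8% of all genes called, 7.34% being higher. The median log2 difference was 0.76. Il18r1, the receptor chain that binds IL-18, averaged 2.09 ± 1.56 CPM in primary tumours (SD, n = 6) and 18.2 ± 18.3 in metastases (SD, n = 14), ranged over 0 to 3.68 and 0.694 to 58.6, and was higher in 6 of 6 sets (log2 difference 3.17 ± 0.927, edgeR adjusted p = 0.0327), a call lost in 7 of 13 alternatives. It lies on the same strand 136 bases past the end of Il1rl1, so of these adjacent genes 1 was lower and 1 higher in metastases. In the same cluster, Il18rap, the accessory chain for IL-18, differed by 0.06 (edgeR adjusted p = 0.924), Il1r1, the receptor for IL-1, by 0.20 (0.708) and Il1rl2, the receptor for IL-36, by 0.46 (0.373). The decoy receptor Il1r2 differed by 2.35 ± 0.766 (edgeR adjusted p = 0.0519), and Sigirr, an inhibitory member, by 1.06 (0.135).

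Il1rl1 lies on chromosome 1 from 40429570 to 40465415, Il33 on chromosome 19 from 29925114 to 29960718 and Il1rap on chromosome 16 from 26581704 to 26730117, all on the plus strand of mm10. The gene identifiers are ENSMUSG00000026069.15, ENSMUSG00000024810.16 and ENSMUSG00000022514.14. Of the nearest genes around Il33, 9930021J03Rik, Ranbp6 and Uhrf2 were not called (edgeR adjusted p = 0.666, 0.351 and 0.162), and Trpd52l3 had too few counts to be tested. The 4 nearest around Il1rap also had too few.

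Of 26 signalling genes below the receptor, 1 was called, as higher, with a median log2 difference of -0.01. That is 3.85%, under the 13.8% of all genes called. Irak2, a kinase of the receptor complex, went from 16.6 to 30.6 CPM (log2 difference 0.78 ± 0.245, edgeR adjusted p = 0.0441), a call lost in 8 of 13 alternatives. Nfkbia, the NF-kB inhibitor that NF-kB itself induces, differed by 0.61 (edgeR adjusted p = 0.055), and Mapkapk2, a kinase activated by p38, by -0.59 (0.0613). The adaptor Myd88 differed by -0.45 (edgeR adjusted p = 0.147).

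Proteases that cut IL-33 into a more active form were the only one of the 6 pathway lists with more genes lower than higher, 4 of 7 tested, beside 6.44% of all genes lower. They were the mast cell genes Mcpt4 (log2 difference -4.67), Tpsb2 (-4.77) and Tpsab1 (-4.23), and Gzmb (-4.85), a granzyme of cytotoxic lymphocytes that mast cells also make. Their edgeR adjusted p were 0.0072, 0.00754, 0.0123 and 0.00984. All 4 calls were lost with the metastases of each set summed and without set 1 or set 2. All 4 were lower in 4 of 6 sets, and in sets 4 and 6 their primary tumours had 0 counts. Ctsg, also a mast cell protease, had 1721 counts in primary tumours and 26 in metastases and did not pass the filter. This list shares 3 of the 4 with the mast cell list.

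Type 2 cytokines and their downstream genes gave 3 of 15 called, each of them higher, beside 7.34% of all genes higher. Chil3, a chitinase-like protein of alternatively activated and alveolar macrophages, went from 2.14 to 144 CPM with no overlap between the groups (log2 difference 5.92, edgeR adjusted p = 0.00318). All 14 metastases lay above all 6 primary tumours for 0.981% of genes. Arg1, an arginase of alternatively activated macrophages, went from 10.4 to 172 CPM (3.20, edgeR adjusted p = 0.0433) and Il13ra1, a receptor chain for IL-13, from 90.7 to 171 CPM (0.92, edgeR adjusted p = 0.0349). The Arg1 call was lost in 7 and the Il13ra1 call in 6 of 13 alternatives. The cytokines that ST2-bearing cells release were barely detected. The 6 primary tumours together held 6 counts of Il5, 3 of Il13 and 12 of Il4, and the 14 metastases 27, 4 and 11.

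Other alarmins and their receptors gave 2 of 8 called, both higher, beside 7.34% of all genes higher. S100a8, a neutrophil alarmin, went from 1.36 to 31.2 CPM (log2 difference 3.91, edgeR adjusted p = 0.00745, a call lost with summed metastases and without set 1), and its partner S100a9 stood at 1.80 and 33.1 CPM (3.15, edgeR adjusted p = 0.0603). Il17rb, the receptor for the alarmin IL-25, went from 0.170 to 0.803 CPM (2.03, edgeR adjusted p = 0.0309), a call lost in 6 of 13 alternatives. It too passed the filter through metastases alone, and its ligand Il25 had 2 and 4 counts. Tslp, an epithelial cytokine that acts beside IL-33, differed by -1.26 (edgeR adjusted p = 0.465). Of the marker lists, 7 of 11 alveolar type 2 genes and 4 of 8 neutrophil genes rose in metastases as well, beside that same share. Among the alveolar ones, Nkx2-1 passed the filter on low counts through metastases alone, so it had to be higher there. The neutrophil list summed to 0.482 to 367 CPM in primary tumours and 21.8 to 585 in metastases. The part of those cells in these differences was not tested.

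**Figure D4:**
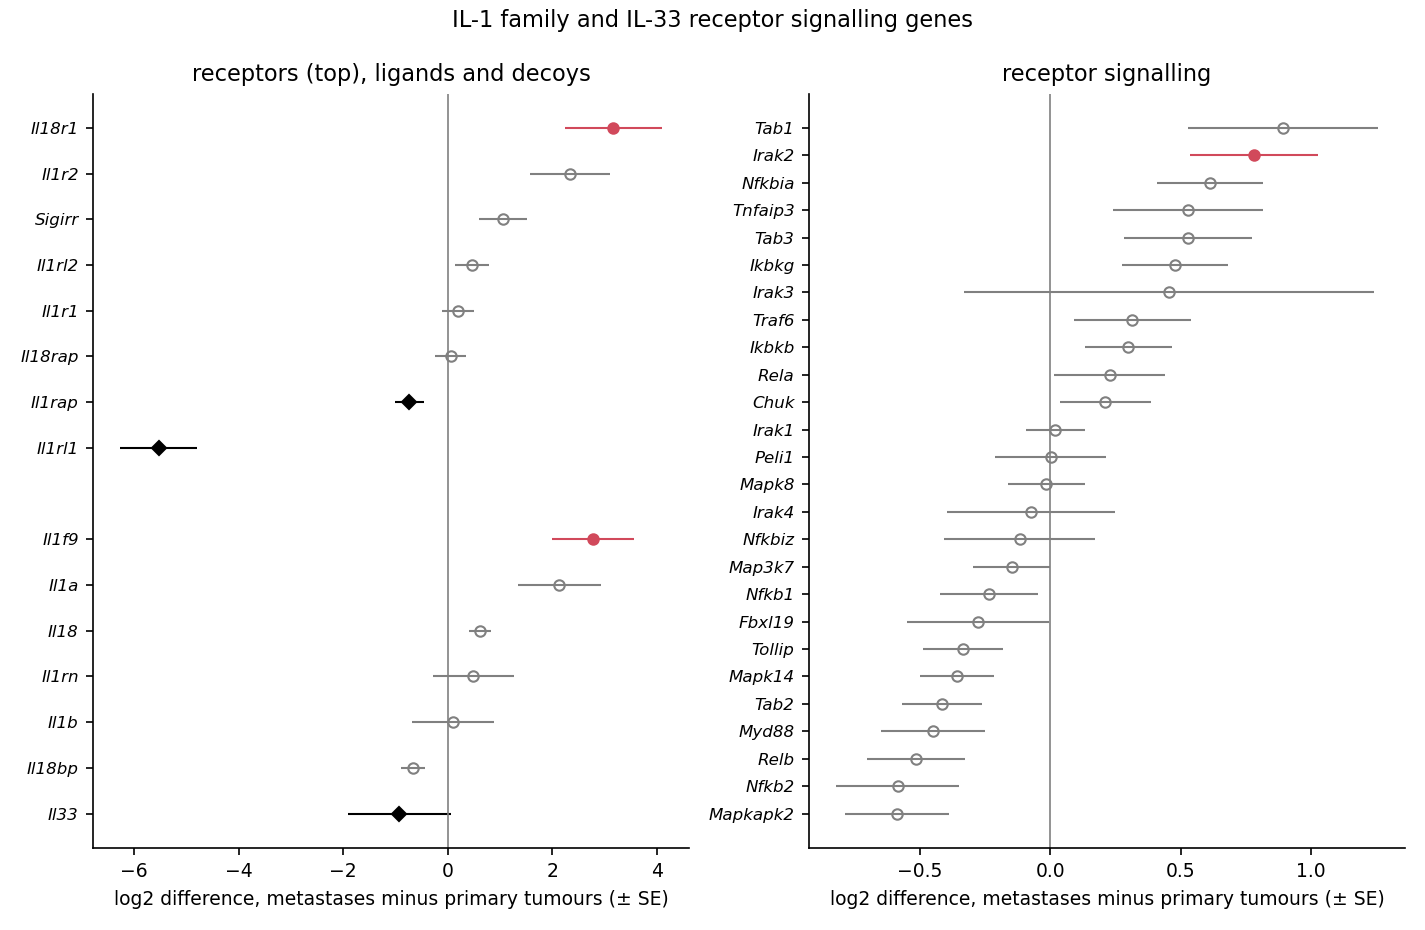
Metastasis minus primary tumour on the log2 scale for the tested genes of the IL-1 family lists and of IL-33 receptor signalling. Bars are standard errors. Black diamonds are Il33, Il1rl1 and Il1rap, which have no test, and their bars are not to be read as one. Filled red points have an edgeR adjusted p under 0.05 and open grey points do not. Il1rl1 lies at -5.52, and Il18r1 at 3.17 on the other side of 0.

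The marker lists were tested in the same fit. Of the mast cell genes other than Cpa3 and Cma1, 4 of 14 fell and 1 rose, with a median log2 difference of -2.29, beside 6.44% lower and 7.34% higher among all genes. Those that fell were Mcpt4, Tpsb2, Tpsab1 and Mrgprb1, a receptor gene of mast cells (log2 difference -4.63, edgeR adjusted p = 0.0103). The one that rose was Hdc, the enzyme that makes histamine, from 2.10 to 19.1 CPM (edgeR adjusted p = 0.0443), and Kit, the stem cell factor receptor of mast cells, was 13.5 and 14.9 CPM (adjusted p = 0.997). Fcer1a, Mrgprb2, Rgs13 and Tpsg1 of the same list did not pass the filter on low counts. They had 886, 518, 115 and 56 counts in primary tumours and 85, 25, 12 and 2 in metastases. In the T cell list 1 of 15 fell, near the share of all genes, the kinase Lck (log2 difference -2.04, adjusted p = 0.0037), and in the regulatory T cell list 1 of 8 fell, the factor Ikzf2 (-1.25, adjusted p = 0.0035), both lost with summed metastases. In the innate lymphoid list 2 of 8 rose, Il17rb and Arg1, against that 7.34%. Of these, Il17rb passed the filter on low counts through metastases alone, so it had to be higher there.

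The genes whose log2 CPM most resembled each member over all 20 libraries were listed by Pearson's r, as a description: libraries of a set may share an animal, and all share a library type. Nearest to Il33 were Spp1 (r = 0.919), Col12a1 (0.914), Cd109 (0.880), Lrrc49 (0.872) and Nrn1 (0.861). Spp1 encodes osteopontin and Col12a1 a fibril-associated collagen. Nearest to Il1rl1 were Sh3d19 (r = 0.935), Kctd21 (0.908), Tbx15 (0.905), Uros (0.901) and Pdia6 (0.892). Genes whose log2 CPM averaged under 0 were not ranked, which kept out most low-count markers, Cma1 and Cd3e among them. For the mast cell genes, r of Il1rl1 over the 20 libraries was 0.592 with Cpa3 and 0.658 with Cma1. Over the 18 libraries without primary tumours 4 and 6, a choice made after seeing the data, it was 0.843 and 0.894. Within the 14 metastases alone it was -0.0086 and 0.337, and within the 6 primary tumours alone 0.587 and 0.550. Nearest to Il1rap were Tmem18 (r = 0.862), Ccnyl1 (0.857), Ppp2r1b (0.855), Uap1 (0.838) and Tirap (0.837). Tirap is an adaptor of Toll-like receptor signalling. Without primary tumours 4 and 6, 4 of the 5 genes nearest to Il33 were again among its nearest 5, and 0 of those for Il1rl1 and 2 of those for Il1rap.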

How the data were processed

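The authors deposited whole-number counts per gene for 20 libraries. Per the submitters' processing notes the tools were Trimmomatic 0.36, STAR (version written as 5.5.4b) and HTSeq on mm10. Per the labels' protocols, RNA was isolated with a Direct-zol kit and stranded libraries were made after Ribo-Zero Gold depletion. Which annotation was counted, and whether by strand, is not given in the sources used here. Every column belonged to a sample of the series.

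CPM used totals scaled by TMM, and log2 CPM a prior count of 2. RPKM divided CPM by the union exon length in GENCODE vM21. All genes were fitted in edgeR 4.0.16 (quasi-likelihood, robust, R 4.3.3) after filterByExpr with a minimum count of 10, with Benjamini-Hochberg adjustment over all tested genes and a threshold of 0.05. The matched set was the block. It comes from the sample titles, and the deviations of primary tumour and metastases of a set from their group means correlated at -0.221 to 0.309 over the 6 sets (mean 0.0684). Alternatives were DESeq2 1.42.0, limma 3.58.1 voom, upper quartile scaling, no filter, metastases summed per set, no block, and each set or metastasis left out. Fits were tested on simulated data. An F test between sets among metastases was also run over all genes, and no p is given in it for the members, since their CPM in the same libraries chose them.

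The members and lists were chosen with earlier results of these data known. The text names the members, the comparison genes, every tested IL-1 family gene, the 3 genes of smallest p in each other pathway list and the 5 nearest in pattern (mean log2 CPM of at least 0, no provisional symbols). Myd88, Tpsab1, Gzmb, Tslp, Hdc, Kit, Mrgprb1, the nearest genome neighbours and genes with few counts were named after their values were seen. Lck, Ikzf2 and the other marker genes were named as single genes of their lists. Cell type lists are otherwise given as summed CPM. The p-values measure the spread between samples, and metastases of a set may share an animal.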

Additional observations from a re-analysis of the deposited data

Results flagged for a closer look

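Of 45 groups of values from 15 genes, 4 had a library that lay far from the rest of its group on a log scale. The 15 genes include Il33, Il1rl1 and Il1rap, whose CPM chose them, so this is a description. All 4 were among the metastases of set 2. Il1rap was 45.9 CPM in metastasis 2-3, and the next lowest metastasis of the set had 96.9. Il1a was 4.42 CPM in metastasis 2-3, and the next highest had 1.14. Il1b was 2.44 CPM in metastasis 2-4, and the next lowest had 7.57. Il18rap was 17.2 CPM in metastasis 2-4, and the next lowest had 22.8.

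Il33 was higher than in the primary tumour in all 4 metastases of set 2 (mean log2 difference 2.08) and lower in both metastases of set 6 (-6.42). That difference between the sets was not tested.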

How the results depend on the processing

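Il1rl1 (-5.97 to -4.95) and Il1rap (-0.94 to -0.47, log2 differences) kept their direction over 13 alternatives each, and Il33 in 11 of 13 (-1.57 to 0.51), turning to 0.22 without set 6 and 0.51 without sets 4 and 6, an alternative chosen after seeing the data. Without the replicate block for matched sets the 3 differences were -5.28, -0.73 and -0.59, and 1221 genes were higher and 1263 lower, beside 1354 and 1189 with it. Genes higher and lower numbered 2310 and 1861 with DESeq2, 297 and 63 with the metastases of each set summed, which leaves fewer samples, 567 to 1643 and 407 to 1409 when each set was left out, and 785 higher without sets 4 and 6. Other pathway genes, 8 higher and 4 lower, became 15 and 9 with DESeq2, 1 and 0 with summed metastases, 4 higher with no filter on low counts, 1 to 13 and 0 to 7 when each set was left out, and 3 and 8 without sets 4 and 6. With no filter the median of all genes was 0.26 and the genes tested 41531. Between sets of metastases, 64 genes became 4890 with DESeq2, 511 with limma voom, 164 with no filter, 726 with upper quartile scaling and 0 to 5602 when each metastasis was left out. Of the 5 genes nearest to Il33, Il1rl1 and Il1rap, 2, 0 and 1 were shared by Spearman's rho, 1, 0 and 0 in the 14 metastases alone, and 0 and 2 for Il1rl1 and Il1rap without primary tumours 4 and 6. For single pathway and marker genes, 74 values lost and 51 gained a call, 628 kept theirs and 0 reversed. The cause of these changes was not tested beyond what is stated. Counts of a few reads, as for the interleukins and for mast cell genes in metastases, limit what can be seen.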
